A study of Homo sapiens with 36 samples.

Results

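This report describes the transcripts of 9 genes whose proteins are known substrates of FBXW7: CCNE1, CCNE2, JUN, KLF5, MTOR, HSF1, MED13, NFE2L1 and TGIF1. The genes were taken by name from a fixed list, and were found by Ensembl identifier among the 62757 genes listed in the deposited count tables. Of the 9, 8 were among the 12356 genes that passed the minimum of a mean raw count of 64 in at least 1 group, and CCNE2 did not pass. The cells were HCT-116, a human colorectal carcinoma line, either WT or FBXW7-/- (KO), an engineered line that the study obtained from a supplier; whether the KO line is a single clone is not given in the sources used here. Polyadenylated RNA was sequenced from 24 libraries that fall into 8 groups of 3. KO cells were kept for 48 h with a control esiRNA (esiCT), with an esiRNA pool against the deacetylase HDAC4 (esiHDAC4) or with #11, a degrader of class IIa HDACs that was given together with esiCT. Each of these was left untreated, which means solvent, or was treated with 50 µM oxaliplatin (OXPT) for the last 24 h. The dose of #11 is not settled, since one label entry gives 1 µM and another 10 µM. WT cells were untreated or OXPT-treated in the same way. For these 6 WT libraries one label entry gives esiCT and another esiHDAC4, so their esiRNA is not settled and WT stands for either.

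FBXW7 is the F-box protein of an SCF ubiquitin ligase, in which SKP1, CUL1 and RBX1 form the scaffold and FBXW7 binds the substrate. It recognises a short phosphorylated motif, a phosphodegron that GSK3 often completes, and the bound protein is then ubiquitylated and degraded by the proteasome. FBXW7 is mutated in a share of colorectal carcinomas, and several of its substrates drive growth. The 9 genes can be ordered by role. CCNE1 and CCNE2 encode the E-type cyclins, which activate CDK2 at entry into S phase. JUN, KLF5, TGIF1, HSF1 and NFE2L1 encode transcription factors, namely an AP-1 subunit, a Krüppel-like factor of proliferating epithelium, a repressor of TGF-β signalling, the regulator of the heat shock response and the regulator that raises proteasome genes when the proteasome is impaired. MTOR encodes the growth kinase of the mTOR complexes, and MED13 ties the CDK8 kinase module to Mediator. RNA counts show how much transcript each gene left in the cells and not how stable its protein was. In bulk RNA, fewer cells that express a gene and less RNA per cell cannot be told apart.

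The libraries held between 10725966 and 20527222 unstranded counts on genes (median 14510758). All 8 epithelial markers examined passed the count minimum, while of 10 markers of other cell types only COL1A1 did, and the other 9 had group means of at most 2.03 CPM (counts scaled to a common library size). CDKN1A, a p53 target used to check the OXPT labels, rose in all 4 OXPT comparisons by 2.55 to 3.18 on the log2 scale. HDAC4 differed by -0.82 (untreated) and -0.74 (OXPT) between KO esiHDAC4 and KO esiCT without passing the test (adjusted p = 0.561 and 1, edgeR quasi-likelihood test). The gene-wide FBXW7 count, which cannot show an edit, differed by -0.32 (SE 0.31) between KO esiCT and WT. In the replicate numbered 3 of KO esiCT OXPT, KO esiHDAC4 OXPT, WT untreated and WT OXPT, transcripts with long exon sequences were low, as described below with MTOR and MED13. The labels do not say whether replicates were separate cultures, so p-values measure only the spread between these samples. All levels below are CPM after TMM normalization, a difference is the log2 fold change of edgeR's quasi-likelihood fit over all 24 libraries with its standard error (SE), and a gene was called when its fold change was over 1.5 and its p, adjusted by Benjamini-Hochberg over all 12356 genes, was under 0.05.

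**Figure D1:**
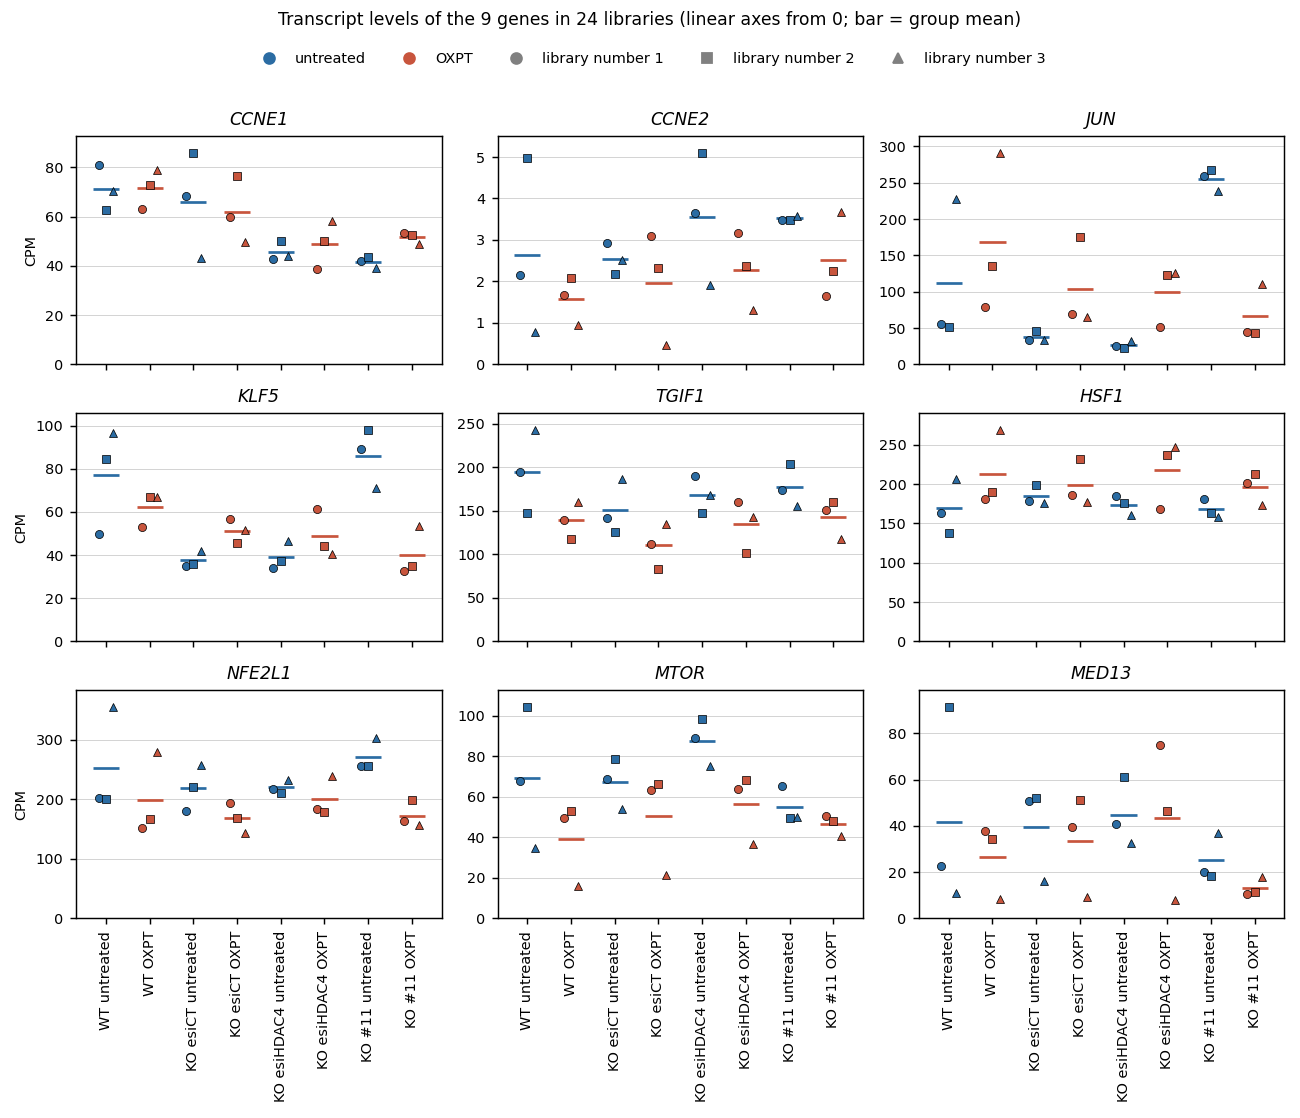
Level of each of the 9 genes in CPM (y axis, linear, from 0) in the 24 libraries, by group on the x axis; points are single libraries, shaped by replicate number, and bars are group means (n = 3). JUN and KLF5 were highest in KO cells with #11 and no OXPT (255 and 86.1 CPM on average), and in all 6 of the WT, esiCT and esiHDAC4 groups the replicate numbered 3 (triangles) lay lowest for both MTOR and MED13.

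JUN and KLF5 were the only members called in any comparison of the 24-library fit, and both were highest in KO cells that had received #11 without OXPT. JUN (ENSG00000177606.8, chr1:58776845-58784048, minus strand) encodes c-Jun, which pairs with FOS and ATF proteins to bind AP-1 sites and takes part in its own induction. Its promoter is shown because JUN had the largest differences among the 9 genes. The 250 bases before the RefSeq start lie on the minus strand at chr1:58784048-58784297 (GRCh38.p14, RefSeq). Capitals mark, from left to right, TTACCTCA at -186 to -179 and TGACATCA at -67 to -60, the known variant AP-1 sites of this promoter, and a match to the MEF2 consensus at -55 to -46 from the start.
JUN: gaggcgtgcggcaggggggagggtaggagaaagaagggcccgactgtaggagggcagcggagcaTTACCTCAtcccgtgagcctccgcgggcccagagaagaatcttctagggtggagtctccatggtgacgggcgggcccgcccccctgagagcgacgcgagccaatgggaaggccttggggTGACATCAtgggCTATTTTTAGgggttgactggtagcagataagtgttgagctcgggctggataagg
MEF2 factors are the classical DNA-bound partners of class IIa HDACs, the proteins that #11 is directed at. Both strands were searched in the 250 bases before the start of 27305 genes, of which 0.645% held TTACCTCA, 2.45% TGACATCA and 2.90% the MEF2 consensus. TTACCTCA was put on the search list because JUN is known to hold it. TGACATCA is a known JUN site too. Neither the presence of these motifs and the MEF2 match there nor their absence from other members was a test. A link between the MEF2 match and the JUN levels with #11 was not tested. A promoter entry was found for 6 of the 9 members, and CCNE2, HSF1 and MED13 had none. The windows of CCNE1, KLF5, MTOR, NFE2L1 and TGIF1 held none of the 8 motifs searched, which also included TGACTCA (4.16% of promoters), TGACGTCA (1.77%), the CArG box (1.14%) and the E2F motifs TTTCGCGC (0.469%) and TTTGGCGC (0.553%). A match is a run of letters and not evidence of binding.

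In untreated KO cells, JUN stood at 33.9, 46.6 and 33.4 CPM with esiCT, at 25.1, 22.1 and 32.7 CPM with esiHDAC4 and at 259, 268 and 238 CPM with #11. The 3 libraries with #11 lay far above the other 6, and the esiHDAC4 libraries lay just below those with esiCT. With OXPT, JUN stood at 69.3, 175 and 65.7 CPM with esiCT, at 51.4, 123 and 126 CPM with esiHDAC4 and at 45.1, 43.1 and 111 CPM with #11. Here the 3 sets overlapped, so the JUN level that set #11 apart in untreated cells was not seen with OXPT. In WT cells JUN stood at 55.3, 52.0 and 227 CPM untreated and at 79.3, 135 and 291 CPM with OXPT. The replicate numbered 3 was by far the highest WT library in each condition, and the 2 conditions overlapped. Ordered by group mean, JUN rose from 26.6 CPM (KO esiHDAC4 untreated) through 38.0 (KO esiCT untreated), 66.4 (KO #11 OXPT), 99.9 (KO esiHDAC4 OXPT), 103 (KO esiCT OXPT), 111 (WT untreated) and 168 (WT OXPT) to 255 CPM (KO #11 untreated). Apart from the lowest pair, the libraries of neighbours in that order overlapped.

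KLF5 (ENSG00000102554.14, chr13:73054976-73077541, plus strand) had a smaller range than JUN. In untreated KO cells its level was 34.8, 36.0 and 41.9 CPM with esiCT, 33.8, 37.2 and 46.3 CPM with esiHDAC4 and 89.3, 98.0 and 71.0 CPM with #11. As for JUN, all 3 libraries with #11 were above the other 6. With OXPT it was 56.7, 45.7 and 51.8 CPM with esiCT, 61.3, 44.4 and 40.3 CPM with esiHDAC4 and 32.5, 34.8 and 53.3 CPM with #11, and the sets overlapped. WT cells held 49.7, 84.6 and 96.6 CPM untreated and 53.0, 66.8 and 66.7 CPM with OXPT, again with overlap. The KLF5 difference with OXPT was -0.31 in WT (SE 0.24, adjusted p = 0.467, edgeR), where that of JUN was 0.60. In KO esiCT it was 0.45 and in KO esiHDAC4 0.32 (SE 0.24 each), and none of these KLF5 differences was called. Over the 8 group means of log2 CPM, JUN and KLF5 had a Pearson correlation of 0.86, as a description over groups that were sequenced together.

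For #11 in untreated KO cells, KO #11 was set against KO esiCT. Deviations of same-numbered libraries correlated at -0.25 to 0.11 between these groups, against 0.28 to 0.79 between KO esiHDAC4 and KO esiCT untreated. Any difference in handling between the KO #11 and KO esiCT libraries cannot be told apart from #11 and was not tested. JUN rose by 2.75 on the log2 scale (SE 0.58, adjusted p = 0.0415, edgeR), a 6.71-fold difference, and KLF5 rose by 1.20 (SE 0.24, adjusted p = 0.039), a 2.29-fold difference. Of the 12356 genes, 10 had a larger log2 difference than JUN and 219 a larger one than KLF5. In this comparison 2 of the 8 tested members were called, both higher, against 0.51% of all genes called either way and 0.38% called higher. The other 6 members lay between -0.66 (CCNE1) and 0.30 (NFE2L1), with a lowest adjusted p of 0.147, also in edgeR. The size of both differences held when any 1 of the 24 libraries was left out (2.66 to 2.91 for JUN and 1.06 to 1.32 for KLF5). The call, close to its threshold, did not hold. It was lost for both genes without KO esiCT untreated replicate 1, 2 or 3 (adjusted p of JUN 0.215, 0.213 and 0.0988, of KLF5 0.215, 0.213 and 0.0742), without KO #11 untreated replicate 1, 2 or 3 (JUN 0.144, 0.144 and 0.101, KLF5 0.144, 0.155 and 0.087), without KO esiHDAC4 untreated replicate 1, 2 or 3 (0.060, 0.0532 and 0.0517 for both genes) and without KO esiHDAC4 OXPT replicate 2 (0.0545 for both), KO #11 OXPT replicate 2 (0.0551 for both) or WT OXPT replicate 2 (JUN 0.0558, KLF5 0.0543), and for JUN also without KO #11 OXPT replicate 1 (0.052), all in edgeR.

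**Figure D2:**
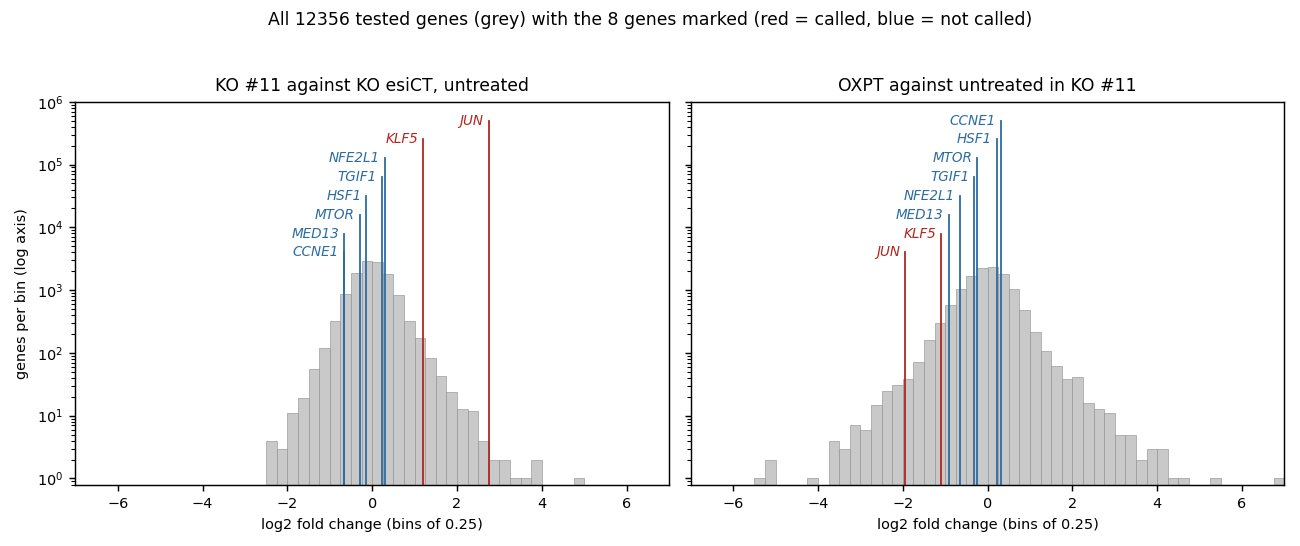
Numbers of genes (y axis, log scale) by log2 fold change (x axis, bins of 0.25) over all 12356 tested genes for #11 in untreated KO cells (left) and for OXPT in KO cells with #11 (right); lines mark the 8 tested members, and their heights carry no value. JUN (2.75) and KLF5 (1.20) lay in the right tail on the left and, at -1.94 and -1.10, in the left tail on the right, while the other 6 members lay nearer to 0 in both.

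JUN stood higher after OXPT in KO cells without #11 and lower in those with it. In KO esiCT cells all 3 OXPT libraries were above all 3 untreated ones and the difference was 1.44 (SE 0.56), but it was not called over all 24 libraries (adjusted p = 0.102, edgeR). With the replicate number as a block it was called (1.43, adjusted p = 0.0434), as it was without WT untreated replicate 3 (1.44, adjusted p = 0.0415). Over all libraries, 0 of the 8 members were called in KO esiCT, against 11.3% of all genes. In KO esiHDAC4 cells JUN rose by 1.91 (SE 0.57, adjusted p = 0.0323, edgeR), a 3.75-fold difference, and was the only member called there, against 12% of genes called either way and 6.44% called higher. That call was lost without KO esiHDAC4 untreated replicate 1, 2 or 3 (adjusted p = 0.12, 0.124 and 0.0714) or KO esiHDAC4 OXPT replicate 2 or 3 (0.108 and 0.105), with differences of 1.70 to 2.06. In WT cells JUN differed by 0.60 (SE 0.55, adjusted p = 0.554, edgeR), and 0 members were called against 10.7% of genes. Within each replicate number JUN was higher with OXPT in 3 of 3 pairs, with log2 ratios of 0.52, 1.38 and 0.36. Whether numbers 1 and 2 pair the WT libraries is not settled, as described with the processing. The difference was not called with the number as a block either (0.63, adjusted p = 0.383, edgeR). Both libraries numbered 3 were high, and leaving out 1 of them breaks that pair: the difference was 1.66 without WT untreated replicate 3 (adjusted p = 0.0399) and -0.056 without WT OXPT replicate 3 (adjusted p = 0.983).

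In KO cells with #11, OXPT lowered both genes. JUN fell by 1.94 on the log2 scale (SE 0.57, adjusted p = 0.0331, edgeR) and KLF5 fell by 1.10 (SE 0.24, adjusted p = 0.00612), and these 2 were the only members called, against 9.51% of genes called either way and 3.57% called lower. The KO #11 untreated libraries enter this comparison and the previous one with #11, so the high JUN and KLF5 levels of those 3 libraries count in both. The KLF5 call held without any 1 of the 24 libraries (highest adjusted p 0.0452). The JUN call was lost without KO #11 untreated replicate 1, 2 or 3 (0.0798, 0.0829 and 0.0579) or KO #11 OXPT replicate 1 or 2 (0.155 and 0.159), with differences between -2.01 and -1.71. NFE2L1 differed by -0.65 (SE 0.24, adjusted p = 0.0954) with no overlap between the groups. It was called with the replicate block (-0.64, adjusted p = 0.0498), without WT untreated replicate 3 (-0.68, adjusted p = 0.0354) and without WT OXPT replicate 3 (-0.67, adjusted p = 0.0482).

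The difference between the OXPT responses with #11 and with esiCT was tested as an interaction. It was -3.39 for JUN (SE 0.80, unadjusted p = 0.00038) and -1.55 for KLF5 (SE 0.34, unadjusted p = 0.000195), and neither passed the adjustment over all genes in edgeR (adjusted p = 0.224 and 0.161). No gene at all was called (0%), while 863 had an unadjusted p under 0.05 and DESeq2 called 36. DESeq2 called both members (adjusted p = 0.00794 for JUN and 0.0105 for KLF5), and edgeR did so without WT untreated replicate 3 (0.0266 and 0.0421). With the replicate block JUN alone was called (-3.53, adjusted p = 0.0481). With OXPT in both arms, #11 against esiCT gave 0 called members against 0.121% of genes, with JUN at -0.64 (SE 0.55, interval -1.79 to 0.51) and KLF5 at -0.36 (SE 0.24, interval -0.86 to 0.15). Where number 3 was left out of every group, 2 members, JUN and MED13, were called lower there, while 11.5% of all genes were called either way and 7.05% lower.

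The question of whether the transcripts of these genes differ without FBXW7 was asked by setting KO esiCT against WT. No member was called, with 0 of 8 untreated against 0.291% of all genes, and 0 of 8 with OXPT against 0.138%. JUN (-1.55, SE 0.56, adjusted p = 0.534, edgeR) and KLF5 (-1.03, SE 0.24, adjusted p = 0.0926) were lower in untreated KO libraries than in all 3 WT libraries. KLF5 was called by DESeq2 (-1.05, adjusted p = 0.0086) and by edgeR without WT untreated replicate 1 (-1.27, adjusted p = 0.0108). Without WT untreated replicate 3, the highest of the WT libraries for JUN, the JUN difference was at its smallest, -0.50. The other 6 members differed by -0.37 (TGIF1) to 0.13 (HSF1) untreated and by -0.34 (TGIF1) to 0.36 (MTOR) with OXPT. The 95% interval of the untreated difference was -0.56 to 0.33 for CCNE1 and -0.27 to 0.52 for HSF1. For MED13 the SE was 0.76, so that only wide changes could have been seen. KO and WT responses to OXPT were also compared as an interaction, which called 0% of genes (201 at an unadjusted p under 0.05, 0 by DESeq2). The largest values there were 0.85 for JUN (SE 0.78) and 0.76 for KLF5 (SE 0.34, unadjusted p = 0.0373, adjusted p = 1.00).

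**Figure D3:**
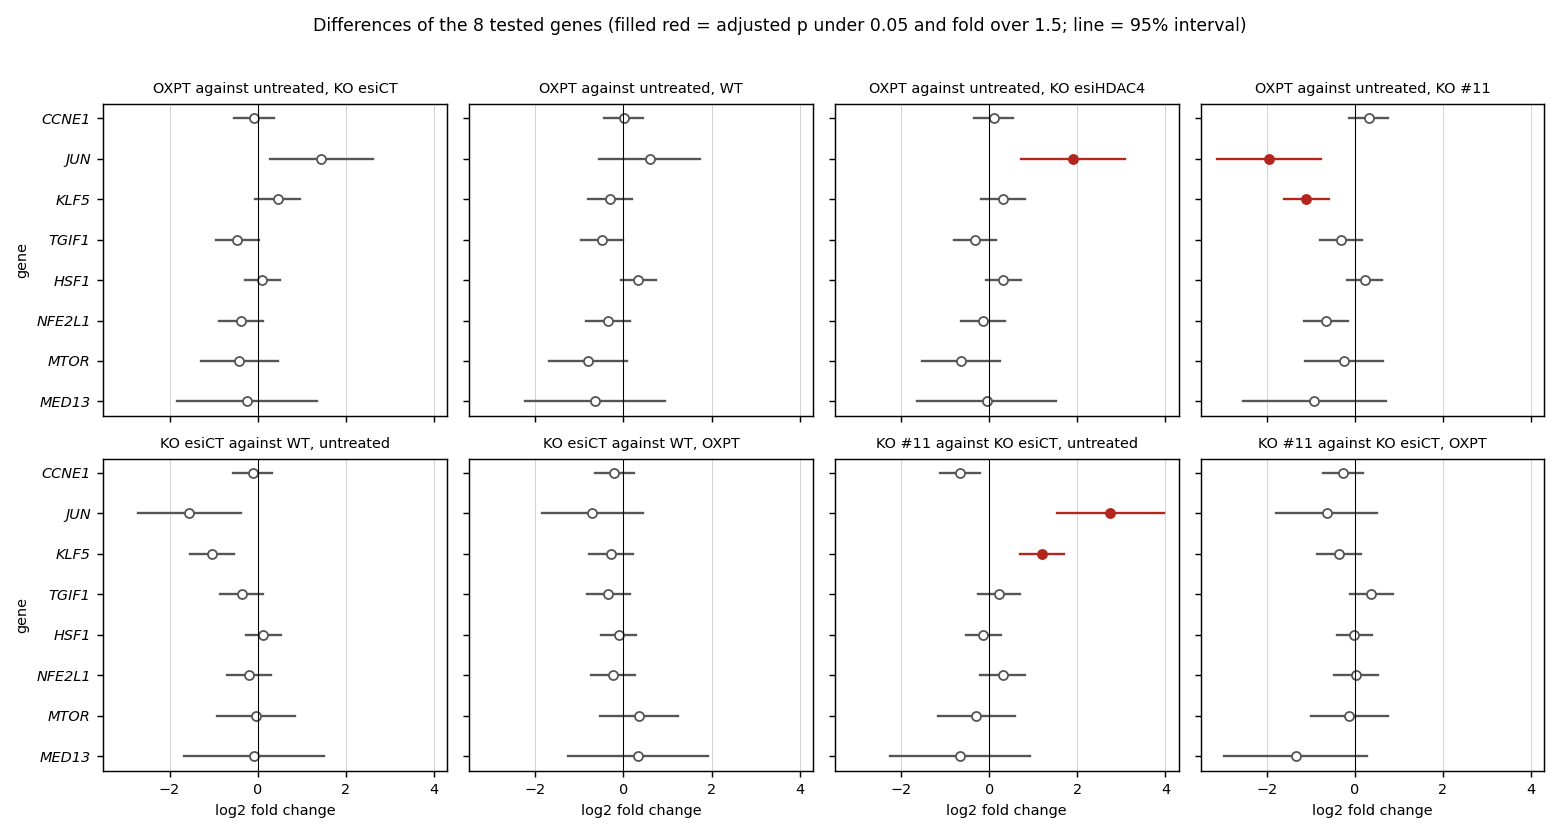
Log2 fold change (x axis) of the 8 tested members (y axis) in 8 comparisons, with 95% intervals from edgeR; filled red points were called. Only JUN and KLF5 passed, with #11 in untreated cells (2.75 and 1.20), with OXPT in KO #11 (-1.94 and -1.10) and, for JUN, with OXPT in KO esiHDAC4 (1.91); the interval of MED13 was the widest in every panel.

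Silencing of HDAC4 was compared with esiCT in KO cells. Untreated, 0 members were called against 0.00809% of genes, which is 1 gene. With OXPT, 0 members were called against 0% of genes, where 380 genes had an unadjusted p under 0.05 and DESeq2 called 9. JUN differed by -0.51 untreated (SE 0.55, interval -1.67 to 0.64), with no overlap between the groups, and by -0.05 with OXPT. KLF5 differed by 0.06 and -0.08. CCNE1 had the largest untreated difference, -0.53 (SE 0.22, unadjusted p = 0.024, adjusted p = 1.00 in edgeR). No gene was called for a difference between the OXPT responses with esiHDAC4 and esiCT (0%, 19 at an unadjusted p under 0.05, 0 by DESeq2). The JUN value there was 0.46 (SE 0.78). A lack of calls does not show a lack of difference. With the replicate block and only these groups, 560 genes, but 0 members, were called for silencing in untreated cells. Silencing and #11 were not tested against each other, and their differences from KO esiCT share the esiCT libraries.

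The E-type cyclin transcripts were lowest with #11 or esiHDAC4 for CCNE1 and scarce throughout for CCNE2. CCNE1 (ENSG00000105173.14, chr19:29811991-29824312, plus strand) ranged from 38.5 to 85.8 CPM over the 24 libraries (median 52.9). Untreated, it stood at 68.4, 85.8 and 43.1 CPM in KO esiCT and at 42.1, 43.5 and 39.0 CPM in KO #11, with KO esiCT replicate 3 inside the range of the others. The difference of -0.66 (SE 0.22, adjusted p = 0.147, edgeR) was not called. Within OXPT comparisons CCNE1 moved little, with 95% intervals of -0.53 to 0.36 in KO esiCT and -0.44 to 0.45 in WT. In KO #11 its 3 OXPT libraries (53.3, 52.6 and 49.0 CPM) all lay above the untreated ones, with a difference of 0.31 (SE 0.22, adjusted p = 0.412). CCNE2 (ENSG00000175305.18, chr8:94879770-94896678, minus strand) gave 4 to 94 unstranded counts per library, 0.48 to 5.10 CPM, and its group means ran from 1.57 CPM in WT OXPT to 3.56 CPM in KO esiHDAC4 untreated. The annotation places 37.0% of its exon bases on exons of INTS8, which is read from the other strand, and in tables of this layout an unstranded read on both genes counts for neither. Counted by strand, CCNE2 had a median of 152 counts on the reverse and 154 on the forward strand against 36.5 unstranded, so reads of INTS8 and CCNE2 cannot be told apart and its level is uncertain.

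Among the cyclin E partners and E2F targets listed for comparison, 16 of 16 were tested. OXPT lowered 4 and raised 1 of them in KO esiCT, lowered 3 and raised 1 in WT and in KO esiHDAC4, and lowered 2 and raised 1 in KO #11. Over all genes OXPT lowered 5.08% and raised 6.23% in KO esiCT, lowered 5.6% and raised 5.1% in WT, lowered 5.54% and raised 6.44% in KO esiHDAC4, and lowered 3.57% and raised 5.94% in KO #11. The 1 raised was CDKN1A each time, the inhibitor of CDK2. CCNA2, the S-phase cyclin, had log2 differences of -1.37 in KO esiCT and -1.46 in WT (SE 0.33 in both). FBXO5, an inhibitor of the anaphase-promoting complex, fell by 1.24 in KO esiCT (SE 0.35), and E2F2 fell by 0.97 (SE 0.29). The median of the list was -0.76 in KO esiCT and -0.72 in WT, beside 0.01 and -0.06 over all genes. CCNE1, itself a known E2F target, stood at -0.08 (SE 0.21) and 0.00 (SE 0.21).

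The AP-1 partners of JUN (14 of 14 tested) gave 3 higher and 1 lower with OXPT in KO esiCT, 3 higher in KO esiHDAC4, and 0 called in WT and in KO #11, beside 6.23%, 6.44%, 5.1% and 5.94% of all genes called higher in KO esiCT, KO esiHDAC4, WT and KO #11. Of all genes, 5.08% were called lower in KO esiCT. ATF3, a stress-induced partner of JUN, rose by 2.33 (SE 0.63) in KO esiCT and 2.53 (SE 0.63) in KO esiHDAC4, and BATF3 and MAFF by 1.57 (SE 0.37) and 1.53 (SE 0.41) in KO esiCT. MAPK9, one of the JNK kinases that phosphorylate JUN, fell by 0.88 there (SE 0.27). With #11 in untreated cells ATF3 rose by 3.22 (SE 0.65, adjusted p = 0.039, edgeR) and was the 1 partner called, beside 0.38% of all genes called higher. In that comparison 12 of the 14 lay above 0, with a median of 0.66 beside -0.00 over all genes. With OXPT in KO #11 12 of 14 lay below 0, with a median of -0.37 beside -0.00. Of the 12 genes listed with KLF5 (other KLF factors, SP1, WWP1 and WWTR1, all tested) none was called in any comparison. The list was not one of KLF5 targets. With #11 in untreated cells all 12 lay above 0, between 0.01 and 1.54 (median 0.56), and in untreated KO against WT 11 of 12 lay below 0 (median -0.53, beside -0.03 over all genes). The KO esiCT untreated libraries enter both comparisons, with opposite sign, so these patterns are not independent.

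TGIF1 (ENSG00000177426.22, chr18:3411608-3459978, plus strand) ranged from 83.3 to 243 CPM (median 150). Untreated KO esiCT libraries held 142, 126 and 187 CPM, and OXPT libraries 112, 83.3 and 135 CPM. The difference of -0.46 (SE 0.23, adjusted p = 0.212, edgeR) was not called, and the groups overlapped. Values of the same sign were seen in WT (-0.48, SE 0.23), KO esiHDAC4 (-0.32) and KO #11 (-0.31), none of them called. Within pairs of the same replicate number TGIF1 was lower with OXPT in 12 of 12 pairs over the 4 backgrounds, by log2 ratios of -0.60 to -0.20, and it was called in none of them with the number as a block, where every fold change stayed under 1.5 (lowest log2 difference -0.54). Of its TGF-β pathway partners (11 of 11 tested), PML rose with OXPT in all 4 backgrounds, by 0.92 to 1.52, SMAD7 rose in WT (1.27, SE 0.34) and TGIF2 rose in KO esiHDAC4 (0.96, SE 0.28). The difference between backgrounds in these calls was not tested. Over all genes OXPT raised 6.23% in KO esiCT, 5.1% in WT, 6.44% in KO esiHDAC4 and 5.94% in KO #11.

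NFE2L1 (ENSG00000082641.16, chr17:48048329-48061545, plus strand) was among the most abundant members, with 144 to 355 CPM (median 200). In KO #11 it stood at 255, 255 and 303 CPM untreated and at 163, 198 and 156 CPM with OXPT, which gave the difference of -0.65 above. In KO esiCT it stood at 181, 221 and 257 CPM untreated and 193, 168 and 144 CPM with OXPT, with overlap and a difference of -0.38 (SE 0.24). Of 15 proteasome and partner genes, all tested, PSMC4, an ATPase subunit of the proteasome, rose with OXPT in WT (0.77), KO esiHDAC4 (0.76) and KO #11 (0.81, SE 0.21 each), and MAFG, a small MAF partner, rose in KO esiCT (0.99, SE 0.28) and KO esiHDAC4 (0.98, SE 0.28). VCP, the segregase that extracts NFE2L1 from the endoplasmic reticulum, fell with #11 in untreated cells (-0.77, SE 0.16, adjusted p = 0.039, edgeR) and rose with OXPT in KO #11 (0.69, SE 0.16, adjusted p = 0.00806). The KO #11 untreated libraries enter both. Over all genes OXPT raised 6.23% in KO esiCT, 5.1% in WT, 6.44% in KO esiHDAC4 and 5.94% in KO #11, and #11 untreated lowered 0.129%. NFE2L1 and TGIF1 had a correlation of 0.86 over the 8 group means.

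HSF1 (ENSG00000185122.11, chr8:144291591-144314720, plus strand) had the narrowest range of group means, from 168 CPM in KO #11 untreated to 217 CPM in KO esiHDAC4 OXPT, a ratio of 1.29. No difference was called. Untreated WT libraries held 164, 137 and 207 CPM and OXPT-treated ones 181, 190 and 269 CPM, which overlapped, with a difference of 0.33 (SE 0.19, adjusted p = 0.301, edgeR). Of 13 heat shock genes listed with it, 12 were tested. With OXPT in KO #11, HSPA1B, an inducible HSP70, rose by 1.49 (SE 0.43) and BAG3, its co-chaperone, by 0.87 (SE 0.18). In the other OXPT comparisons 0 of 12 were called. Over all genes 9.51% were called in KO #11 (5.94% higher), 11.3% in KO esiCT, 10.7% in WT and 12% in KO esiHDAC4. HSPA1B shares most of its sequence with HSPA1A, so its count is uncertain. With #11 in untreated cells 11 of 12 lay below 0, down to -2.27, with a median of -1.29 beside -0.00 over all genes, but none was called.

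MTOR (ENSG00000198793.14, chr1:11106535-11262556, minus strand) and MED13 (ENSG00000108510.10, chr17:61942605-62065278, minus strand) varied widely between replicates. MTOR in WT stood at 68.0, 104 and 34.9 CPM untreated and at 49.3, 52.8 and 15.9 CPM with OXPT. MED13 in KO esiHDAC4 with OXPT stood at 75.0, 46.6 and 7.97 CPM, and in WT untreated at 22.5, 91.5 and 11.1 CPM. In each of these sets the replicate numbered 3 was the lowest. Both transcripts are long, with 13373 and 12673 exon bases. Over 1959 tested genes with at least 10000 exon bases, the median log2 level, taken against each gene's mean over libraries, was -0.75 in WT OXPT replicate 3, -0.46 in KO esiCT OXPT replicate 3, -0.39 in KO esiHDAC4 OXPT replicate 3 and -0.33 in WT untreated replicate 3. The 12 replicates numbered 1 and 2 of the KO esiCT, KO esiHDAC4 and WT groups lay between 0.02 and 0.51. Over the 24 libraries the log2 level of MTOR had a correlation of 0.94 and that of MED13 of 0.88 with this median, and the values were -0.63 for HSF1, -0.43 for JUN and -0.07 for KLF5. These are descriptions over libraries that share groups and scaling. MTOR and MED13 are long genes too, but all members were left out of the 1959 genes behind the median. The part of this shift in the members' differences was not tested. Where number 3 was left out of every group, an alternative chosen after seeing the data, the calls with #11 and with OXPT in KO #11 did not fall away, and the former grew from 2 members to 4, with CCNE1 and MED13 added. In the same fit the calls with #11 over all genes grew from 63 of 12356 (0.51%) to 1816 of 12507 (14.5%).

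**Figure D4:**
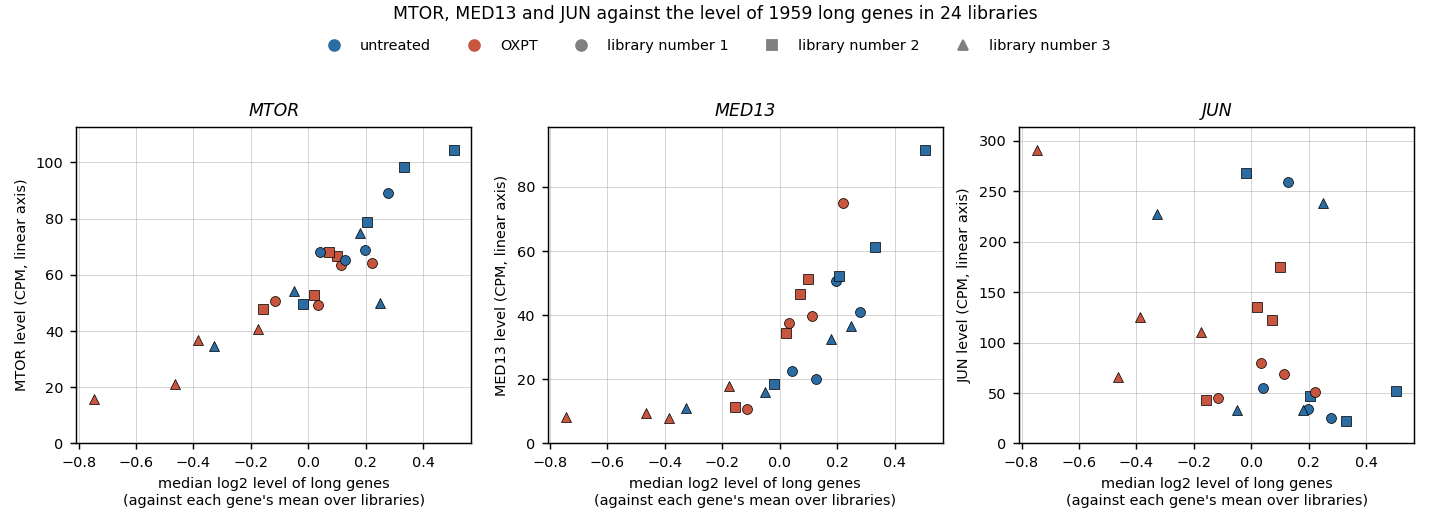
Levels of MTOR, MED13 and JUN in CPM (y axes, linear, from 0) against the median log2 level of 1959 long genes in the same library (x axis), for 24 libraries. MTOR and MED13 rose along the axis (correlation of log2 levels 0.94 and 0.88), and the leftmost points at -0.75 to -0.33 are replicates numbered 3; JUN (-0.43) showed no such line, and its KO #11 untreated libraries lay at 238 to 268 CPM between -0.02 and 0.25.

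No difference of MTOR or MED13 was called in the fit of all 24 libraries with the settings given above. MTOR was lower with OXPT in WT (-0.81, SE 0.43, adjusted p = 0.247, edgeR) and in KO esiHDAC4 (-0.64, SE 0.42, adjusted p = 0.373), where all 3 OXPT libraries (64.1, 68.1 and 36.7 CPM) lay below the untreated ones (89.1, 98.4 and 75.0 CPM). MTOR was lower with OXPT in 12 of 12 pairs of the same number. In each of those pairs the median level of the long genes described above was lower with OXPT too. That median went from 0.51 to 0.02 in WT number 2 and from 0.04 to 0.03 in WT number 1. How much of the MTOR difference goes with this shift was not tested. MTOR was called with OXPT in KO esiHDAC4 when only these groups were fitted with the replicate block (-0.69, adjusted p = 0.0395, edgeR). That fit called 2243 of 11940 genes. In WT MTOR was called with no count filter (-0.88, adjusted p = 0.0478, edgeR), beside 1956 of 42865 genes. It was also called there without number 3 of every group (-0.74, adjusted p = 0.0122, edgeR), beside 20.9% of all genes called either way and 11.1% lower. MED13 was lowest in KO #11 OXPT, at 10.7, 11.2 and 17.9 CPM, just below the untreated 20.0, 18.4 and 36.7 CPM (-0.92, SE 0.78, adjusted p = 0.519). With only these groups fitted that difference was called, both without the replicate block (-0.91, adjusted p = 0.0492, edgeR) and with it (-0.89, adjusted p = 0.00533, edgeR). Those fits called 2636 and 3011 of 11854 genes. With #11 against esiCT MED13 was called lower without number 3 of every group, both untreated (-1.41, adjusted p = 0.0401) and with OXPT (-2.10, adjusted p = 0.0113), and with OXPT also with no count filter (-1.37, adjusted p = 0.00381), all in edgeR. Without number 3, 7.51% (untreated) and 7.05% (OXPT) of all genes were called lower with #11. The MED13 group mean in KO #11 OXPT was 13.2 CPM and its highest, in KO esiHDAC4 untreated, 44.9 CPM. Of the mTOR pathway genes (15 of 16 tested), SESN1, a p53-induced inhibitor of mTORC1, rose with OXPT in all 4 backgrounds by 1.98 to 2.72. RPTOR, the mTORC1 scaffold, fell in KO esiCT (-1.12) and in WT (-0.99, SE 0.28 each), as did TSC2, which restrains mTORC1 (-0.72 and -0.93, SE 0.19 each), and MLST8, a subunit of both mTOR complexes (-0.90 and -0.86, SE 0.25 each). The 6 genes of the Mediator kinase module and its neighbours were all tested and none was called in any comparison. Over all genes OXPT raised 5.1% to 6.44% and lowered 3.57% to 5.6% in the 4 backgrounds. In the other comparisons at most 0.51% of all genes were called.

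Among 24 further FBXW7 substrates, of which 22 were tested, OXPT lowered 5 in KO esiCT, 4 in WT, 4 in KO esiHDAC4 and 3 in KO #11, and raised none, beside 5.08%, 5.6%, 5.54% and 3.57% of all genes lowered and 5.1% to 6.44% raised. The mitotic kinases PLK1 (-2.21, SE 0.26) and AURKA (-1.72, SE 0.22) fell in KO esiCT, and so they did in WT (-1.81, SE 0.26, and -1.72, SE 0.22). HDAC4 (-1.56, SE 0.25) and SREBF1, the regulator of lipid synthesis genes (-0.90, SE 0.21), also fell in KO esiCT, with -1.29 (SE 0.24) and -0.66 (SE 0.21) in WT. HDAC4 was higher with #11 than with esiCT under OXPT (1.36, SE 0.25, adjusted p = 0.0383, edgeR). MYC was lower in KO esiCT than in WT, by -1.36 untreated (SE 0.21, adjusted p = 0.00237) and -1.26 with OXPT (SE 0.21, adjusted p = 0.00784), and was the only one of the 22 called there. The 16 genes of the ligase and its regulators were all tested, and FBXW7 itself was the only one called. It was higher with OXPT in KO esiCT (1.33, SE 0.31, adjusted p = 0.00747, edgeR) and in KO #11 (1.09, SE 0.31, adjusted p = 0.0281, edgeR). Over all genes 6.23% and 5.94% were called higher there.

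Levels of different genes are compared per kilobase of exon. By the median over 24 libraries HSF1 (34.1 CPM per kb) and NFE2L1 (34.0) were the most abundant transcripts, followed by CCNE1 (21.5), JUN (18.6), TGIF1 (18.4), KLF5 (13.8), MTOR (4.40), MED13 (2.64) and CCNE2 (0.53). By the ratio of the highest to the lowest group mean, JUN varied most (9.57), then MED13 (3.39), KLF5 (2.29), CCNE2 (2.27), MTOR (2.22), TGIF1 (1.77), CCNE1 (1.72), NFE2L1 (1.61) and HSF1 (1.29). The pattern of each tested member over the 8 group means was set against 9507 genes of at least 10 CPM. The closest to JUN were DUSP8 (Pearson correlation 0.98) and CEBPB (0.97), and the closest to KLF5 were BCL2L13 and MAP1LC3B (0.97 each). BIRC6 and ANAPC1 (0.99 each) were closest to MED13, CCSAP and UGT8 (0.99 each) to MTOR, DPCD (0.99) and AP1B1 (0.98) to CCNE1, ETNK2 (0.99) and PRMT2 (0.98) to HSF1, BFSP1 and ATXN2L (0.97 each) to NFE2L1, and GEMIN2 and HPS4 (0.97 each) to TGIF1. These values come from 8 points each and are given as descriptions only.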

How the data were processed

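Polyadenylated RNA of 36 HCT-116 libraries was sequenced, from a kit that marks strand. The authors deposited raw read counts per gene, unnormalized whole numbers with unstranded, forward and reverse columns. The submitters' processing notes name Trimmomatic 0.39, STAR 2.7.11a and hg38, while the annotation is not given in the sources used here. Since the study's methods describe salmon and DESeq2, its own tests rest on other values. Reverse totals were 1.00 to 1.02 times the forward totals, so the unstranded column was used and antisense reads are not separated. Lines that name no gene were left out of library sizes, among them 2.58% to 5.79% of reads in no feature and 10.6% to 12.2% ambiguous. Groups followed the labels, and 12 WT libraries with conflicting OXPT entries entered no comparison. Replicate pairs differed beyond sampling noise (chi-square per degree of freedom 8.58 to 233 over 24 pairs).

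Genes whose raw counts averaged 64 or more in any 1 group were fitted with edgeR 4.0.16 (R 4.3.3; TMM, quasi-likelihood F test, 1 coefficient per group), and coordinates and exon lengths are from GENCODE 44. Alternatives were DESeq2 1.42.0, RLE normalization, other count filters and columns, only the groups compared, the replicate number as a block and leaving out each library, recomputed for the members and for the counts over all genes, not for single genes of the other lists. Libraries of the same number were taken as pairs where their deviations correlated (each over 0.1), in all comparisons but the 2 of #11 against esiCT. That rule does not settle the pairing of numbers 1 and 2. For OXPT in WT the correlation was 0.18 between the libraries numbered 1 and 0.56 for 1 pair of numbers 1 and 2. For OXPT in KO esiHDAC4 these values were 0.20 and 0.35. Between the libraries numbered 3 it was 0.62 and 0.68. All 9 genes are named, and the 8 tested ones entered every comparison, although not all of their values are printed. From the other lists, called genes are named, at most 4 per list by size. The members and lists were chosen with earlier results of these data known. The fit was tested on simulated data. The depth is the total given per library, and its precision covers counting error only.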

Additional observations from a re-analysis of the deposited data

Results flagged for a closer look

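The response to OXPT went opposite ways in KO cells with #11 and with esiCT for JUN and KLF5: in both backgrounds the OXPT and untreated libraries did not overlap, and the direction was reversed. The difference between the 2 responses was -3.39 on the log2 scale for JUN (SE 0.80, unadjusted p = 0.00038, adjusted p = 0.224) and -1.55 for KLF5 (SE 0.34, unadjusted p = 0.000195, adjusted p = 0.161) in edgeR's quasi-likelihood test over 12356 genes, so neither passed the adjustment. It was seen in 3 of 3 libraries of each group. The OXPT differences of both backgrounds enter it, namely -1.94 (JUN) and -1.10 (KLF5) with #11 and 1.44 and 0.45 with esiCT. KO #11 untreated stood at 238 to 268 CPM for JUN and 71.0 to 98.0 CPM for KLF5.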

How the results depend on the processing

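Over 1120 values under alternatives, 1006 kept their direction and their side of the threshold, 36 lost and 28 gained a call, 49 counts of called members moved and 1 was reversed (JUN with OXPT in WT, -0.056 with WT OXPT replicate 3 left out, against 1.66 with replicate 3 of WT untreated left out). The alternatives without the replicates numbered 3 were chosen after seeing the data. The number of members called became 1 in place of 0 for OXPT in KO esiCT (no count filter, both fits with the replicate block, number 3 left out of every group or of WT), for OXPT in WT (no count filter, number 3 left out of every group) and for KO against WT untreated (DESeq2, no count filter). It became 2 in place of 1 for OXPT in KO esiHDAC4 (replicate block with only the groups compared) and 4 in place of 2 for OXPT in KO #11 (only the groups compared, with and without the replicate block). For #11 untreated it became 1 in place of 2 (replicate block with only the groups compared, where KLF5 had an adjusted p of 0.0602) and 4 (number 3 left out of every group). For #11 with OXPT it became 1 (no count filter) and 2 (number 3 left out of every group) in place of 0. For the interaction of #11 and OXPT it became 2 (DESeq2, number 3 left out of every group or of WT) and 1 (no count filter, only the groups compared, replicate block) in place of 0. For OXPT in KO #11 it was 3 in place of 2 with the replicate block, which adds NFE2L1. The replicate block changed no other call of a member in the fit of all libraries, and its numbers do not pair the libraries of #11 against esiCT. Leaving out each library gave 0 to 1 members for OXPT in KO esiCT, WT and KO esiHDAC4 and for KO against WT untreated, 1 to 3 for OXPT in KO #11, 0 to 2 for #11 untreated and for its interaction with OXPT, and 0 to 0 elsewhere. The cause of these moves was not tested. Over all genes, OXPT in KO #11 called 2636 of 11854 with only the groups compared and 3011 of 11854 with the block added. The block alone called 1713 of 12356 there. OXPT in KO esiHDAC4 called 2243 of 11940 (block with only the groups compared). OXPT in KO esiCT called 1866 of 42865 (no count filter), 1946 of 12356 (block) and 1368 of 11734 (block with only the groups compared).

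Counts over all genes moved by more than 1.5 times in several comparisons. The genes tested were 12356 in the fit of all libraries, 42865 with no count filter, 12507 without number 3 and 12386 without number 3 of WT. For #11 untreated, 63 became 409 with DESeq2, 480 with no count filter, 566 with only the groups compared, 397 with the replicate block, 1816 without number 3 and 482 without number 3 of WT. For KO against WT untreated, 36 became 117 (DESeq2), 322 (no count filter), 4 (a mean of 64 in every group), 22 (forward strand), 1 (only the groups compared), 75 (replicate block) and 12 (block with only these groups). With OXPT, 17 became 30, 91, 3, 11 (reverse strand), 0, 2 and 37 (without number 3). For #11 with OXPT, 15 became 126 (DESeq2), 367 (no count filter), 0 (a mean of 64 in every group, only the groups compared), 2 (forward strand), 132 (replicate block), 1438 (without number 3) and 45 (without number 3 of WT). For silencing untreated, 1 became 0 to 560, and with OXPT 0 became up to 9. For the interaction of #11 and OXPT, 0 became 36 (DESeq2), 65, 1, 20, 15, 11, 244 and 102, and for genotype and OXPT 24 with no count filter. For OXPT, 1398 in KO esiCT became 907 (a mean of 64 in every group), 553 (only the groups compared) and 2178 (without number 3), 1322 in WT became 836, 84, 652 and 2614, 1480 in KO esiHDAC4 became 943, 2243 and 2250, and 1175 in KO #11 became 2636, 3011 and 2847. With 1 library left out, the counts over all genes ran from 779 (without KO esiCT untreated replicate 1) to 1880 for OXPT in KO esiCT, from 829 (without WT OXPT replicate 3) to 2105 in WT, from 807 (without KO esiHDAC4 OXPT replicate 2) to 1912 in KO esiHDAC4 and from 555 (without KO #11 OXPT replicate 1) to 1494 in KO #11, each highest without WT untreated replicate 3. They ran from 0 to 338 for #11 untreated, with 0 when KO esiCT or KO #11 untreated replicate 1 or 2 was left out, from 1 to 27 for #11 with OXPT, from 14 to 89 and from 10 to 23 for KO against WT without and with OXPT, from 0 to 3 for silencing untreated and from 0 to 39 for the interaction of #11 and OXPT. Low counts limit CCNE2, and the spread between replicates limits MED13 and MTOR.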

Other observations

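The 12 WT libraries with conflicting OXPT entries form no group, and their levels are given by their titles. JUN ran from 31.8 to 498 CPM over the 12 libraries (median 232). It ranged from 225 to 338 CPM in the 3 titled WT PROTAC11, from 188 to 498 CPM in those titled WT PROTAC11 OXPT, from 31.8 to 296 CPM in those titled WT siHDAC4 UNT and from 57.6 to 143 CPM in those titled WT siHDAC4 OXPT. KLF5 ran from 50.3 to 145 CPM (median 76.5), with 62.9 to 145 CPM in the libraries titled WT PROTAC11 and 50.3 to 99.9 CPM in those titled WT PROTAC11 OXPT. It ranged from 51.1 to 134 CPM in those titled WT siHDAC4 UNT and from 50.9 to 59.0 CPM in those titled WT siHDAC4 OXPT. MED13 ran from 3.18 to 86.4 CPM and MTOR from 22.1 to 98.4 CPM. The 6 libraries titled WT PROTAC11 or WT PROTAC11 OXPT held MED13 at 3.18 to 12.9 CPM and MTOR at 22.1 to 38.5 CPM.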
